A study of Mus musculus with 8 samples.

Results

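Conventional CD4 T cells of the mouse tongue epithelium were described here across 8 single-cell libraries. A cell was counted when it passed the quality limits of the study (1000 to 5500 detected genes, at most 30000 unique molecular identifiers, UMIs, and at most 7% mitochondrial UMIs), when Krt5, Krt14, Krt15, Krt13 and Krt6a together took under 0.5% of its UMIs, and when it held at least 2 UMIs of Cd3e, Cd3d and Cd3g together, at least 1 of Cd4, none of Cd8a, Cd8b1, Trdc or Foxp3 and fewer than 5 of Lyz2. The rule found 556 cells, which were 2.21% of the 25199 cells within the quality limits, 1.31% of all 42550 cells and part of 5348 T cells, here the cells that met the same quality, keratin and Lyz2 limits with at least 2 Cd3 UMIs. The N libraries held 114 and 78 of them, the E libraries 23 and 103, the Y libraries 88 and 102, and the EY libraries 34 and 14, in replicate order, which is also the order of the values of a group below. Because these genes chose the cells, their levels are not results. In 283 cells Cd4 stood at exactly 1 UMI and in 14 the Cd3 genes at exactly 2, while 748 T cells without Cd4, Cd8a, Cd8b1, Trdc and Foxp3 UMIs, 82 CD4 cells with exactly 1 Foxp3 UMI and 6 cells with exactly 1 Cd3 UMI lay just outside.

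The study asked how epithelial progenitors of the tongue begin to form tumours when oncogenes are switched on in them. All mice carried Krt14-CreERT, a tamoxifen-activated recombinase driven by the keratin 14 promoter of basal epithelial cells, and LSL-rtTA, which lets doxycycline switch on tetracycline-controlled genes after recombination, and per the study's methods also an H2B-GFP reporter under the same control. N mice had no effector transgene, E mice had tetON_E6-E7 (the HPV16 oncogenes E6 and E7), Y mice had tetON_YAP1S127A (a YAP1 that stays active because an inhibitory phosphorylation site is lost), and EY mice had both. Every mouse received tamoxifen into the tongue and doxycycline in its food, and cells were taken 15 days after induction, 2 libraries per group. The transgenes were thus driven in keratin 14-expressing epithelium and not in T cells, so each comparison below is between T cells of animals whose epithelium differed. The labels gave no age. The methods describe littermates balanced for age and sex. N2 is labelled with 2 animal numbers and may hold cells of both animals. No marker of blood or immune cells was used in sorting, which took viable single cells.

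CD4 T cells recognise peptides on MHC class II through the T-cell receptor and act mainly through secreted cytokines and surface ligands. Conventional helper cells are commonly grouped by their products: interferon-gamma for type 1, interleukins 4, 5 and 13 for type 2, and interleukins 17 and 22 for type 17 cells, which are frequent in barrier epithelia. Foxp3-expressing regulatory T cells restrain the others, and cells that stay in tissues carry molecules such as CD69 and CXCR6.

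The label of conventional CD4 T cells was checked against genes the rule did not use. Trac, the constant region of the T-cell receptor alpha chain, was detected in 500 of the 556 cells (89.9%, from 64.3 to 98.1% by library), against at most 1.38% of keratin-rich cells of a library, those with at least 2% of UMIs from the 5 keratins and no Cd3 UMI. Cd40lg, the ligand by which helper cells activate B cells and dendritic cells, was found in 153 cells (27.5%). Its share was 16.7 and 33.3% in N, 43.5 and 46.6% in E, 33.0 and 16.7% in Y, 11.8% in EY1 and 0 of 14 cells in EY2, where 3 cells would be 21.4%. Pooled over libraries Cd40lg stood at 74.6 UMIs per 1000000 UMIs (CPM) here, 9.87 in regulatory T cells and 5.21 in CD8 T cells. Trat1, an adaptor of the T-cell receptor complex, was found in 130 cells (23.4%, from 7.14 to 29.8% by library). Of the genes of tissue cells, Cd69 was detected in 79.1%, Rgs1 in 85.8% and Cxcr6 in 68.7%. Among the other genes of the tissue residency list, Bhlhe40 was detected in 74.1%, Rgs2 in 52.0%, Runx3 in 47.1% and Crem in 37.4%. Itgae was detected in 24.1%, Prdm1 in 14.6%, Ccr8 in 8.81%, Cd101 in 7.01%, Itga1 in 6.83% and Xcl1 in 3.06%. Zfp683, a transcription factor of resident CD8 cells, was found in 0 of 556. Of the markers of regulatory T cells other than Foxp3, Ctla4 was detected in 57.9%, Il2ra in 25.5% and Ikzf2 in 20.5% of the cells. Trat1 did not separate these cells from regulatory T cells, as given below. The part of regulatory cells without a Foxp3 UMI was not tested.

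The 556 cells held 3177688 UMIs. Their median depth by library ran from 2545.5 UMIs (EY2) to 7762.0 (E2), and the median of keratin-rich cells from 10060.0 to 22936.5. Shares of cells with a UMI depend on depth, and all intervals given cover counting error only. Intervals of UMI ratios treat each UMI as independent, so they are too narrow where a few cells hold many of the UMIs. No barcode of these cells occurred in more than 1 library. Scrublet called 397 of all cells (0.933%) doublets and 2 of the 556, both in Y1. It called 1 cell of 7132 in E1 and 3 of 4074 in EY1, so few doublets were marked in these libraries. Markers of other cells were present in unequal amounts, given as CPM summed over a list. The 7 neutrophil markers summed to 9.76 to 75.8 CPM in N1, N2, E1, E2 and Y2 but to 1070 in Y1, 2075 in EY1 and 844 in EY2. In Y1, EY1 and EY2 S100a8 and S100a9 made up most of the sum, while the growth factor receptor Csf3r was at 0 in every library but Y1. S100a8 was detected in 119 cells (from 0.877 to 100% by library) and S100a9 in 99 (from 0 to 97.1%). In keratin-rich cells both reached 100% of a library, and the part of free RNA was not tested. The 6 dendritic or Langerhans cell markers summed to 118 to 194 CPM in N, E and EY1 and to 1233, 2237 and 4394 in Y1, Y2 and EY2, mostly Cd74, H2-Aa and H2-Ab1, while Flt3 was at 0 except in Y2 and Cd207 at 0 except in N1 and Y2. The 9 macrophage or monocyte markers ranged from 21.9 (E2) to 676 (EY2), with Adgre1 at 0 except in Y1, and the 8 keratinocyte markers outside the rule from 328 (E2) to 2027 (EY2). Of the keratinocyte markers, Krt17 was detected in 155 cells (from 14.1 to 100% by library). Haemoglobin genes reached 10829 CPM in N2 against 16.9 to 1488 elsewhere. B-cell genes Ms4a1 and Jchain and the gamma-delta T-cell gene Sox13 were at 0 throughout. Other genes of these lists were found, Ighm in 54 cells (9.71%), Tcrg-C2 in 72 (12.9%), Tcrg-C1 in 22 and Tcrg-C4 in 19. The lists of B or plasma, gamma-delta T and natural killer or innate lymphoid markers summed to at most 147 (E1), 131 (N1) and 142 CPM (N2). In 13 cells, 7 of them in Y1 and 4 in Y2, markers of antigen-presenting cells reached 3 UMIs, and each count of called genes below was also made without these cells.

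The first comparison asked whether the transgenes moved the size of the population. Conventional CD4 cells made up 25.6 and 10.6% of the T cells in N, 8.21 and 16.8% in E, 4.21 and 15.8% in Y, and 11.4 and 5.86% in EY. N1 was the highest, Y1 the lowest, and every group overlapped with the others. The mean share was 9.30% ± 5.29 (SD, n = 4) with the YAP transgene and 15.3% ± 7.77 (n = 4) without it (p = 0.257 by an exact permutation test, two-sided, of 70 labellings; adjusted p = 0.686 over 6 share tests). For E6-E7 it was 10.6% ± 4.75 against 14.0% ± 9.05 (n = 4 each, exact permutation p = 0.571, adjusted 0.686). The smallest p these labellings can give is 0.0286, and groups of 2 against 2 cannot go below 0.333. The denominator was unequal, since 1814 of the 2090 T cells of Y1 were CD8 cells. Of all cells within the quality limits the share ran from 0.449% (EY2) and 0.464% (E1) to 6.78% (E2), so that both extremes of the E group bracketed nearly the whole range, and neither transgene made a difference that passed the test (YAP difference -1.43 percentage points, exact permutation p = 0.400, adjusted p = 0.686, and E6-E7 difference -0.858, p = 0.714, adjusted p = 0.714).

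**Figure D1:**
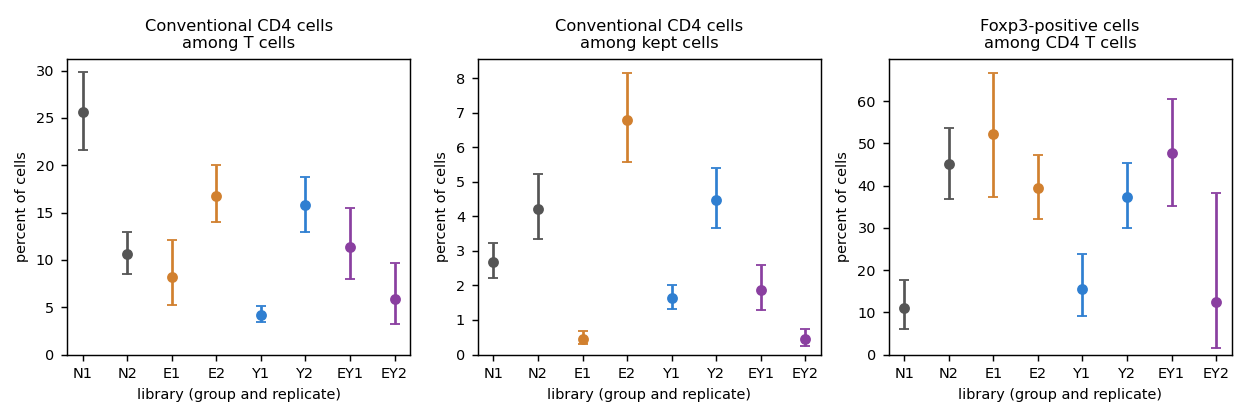
Share of conventional CD4 T cells among T cells (left) and among all cells within the quality limits (middle), and share of Foxp3-positive cells among CD4 T cells (right), in percent of cells. Each point is 1 library, named on the x axis by group and replicate, with its exact 95% interval, and the 2 libraries of a group lie as far apart as the groups do, from 4.21 to 25.6% in the left panel.

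The balance between conventional and regulatory cells varied as widely. Foxp3 was detected in 10.9 and 45.1% of CD4 T cells in N, 52.1 and 39.4% in E, 15.4 and 37.4% in Y, and 47.7 and 12.5% in EY. Both E libraries were among the 4 highest, and in N, Y and EY the 2 libraries of a group lay far apart. The means were 37.9% ± 17.7 with E6-E7 and 27.2% ± 16.6 without (n = 4 each, exact permutation p = 0.343, adjusted p = 0.686), and 28.3% ± 17.1 with YAP and 36.9% ± 18.1 without (exact permutation p = 0.543, adjusted p = 0.686). A regulatory cell with no Foxp3 UMI counts here as conventional.

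In the tongues that carried E6-E7 alone, conventional CD4 T cells held more RNA of the genes that interferons induce. Against N, 23 of 6030 genes tested passed the threshold in E, all higher, which is 0.381% of the genes tested (edgeR quasi-likelihood test, Benjamini-Hochberg adjusted p under 0.05). The interferon-stimulated list gave 9 called genes of 16 tested (Isg15, Ifit1, Ifit3, Bst2, Zbp1, Irf7, Rtp4, Oasl2 and Usp18). All 16 had a positive log2 difference, and their median was 2.32 against -0.01 over all genes. This list, like the other lists used below, was chosen with earlier results of these data known. Most of the other called genes, among them Ifi202b, Ifi203, Ifi209, Ifit2, Ifit3b, Oas3, Slfn1, Slfn5, Trim30a, Xaf1 and Igtp, are also known as interferon-induced. The fit was made on UMIs summed per library, levels are CPM scaled by the TMM method, log2 differences carry their standard error, and E1 contributed 23 cells. Removing the 13 cells with antigen-presenting cell UMIs left 24 called genes, 23 of them shared, and leaving out the small libraries E1 and EY2 left 19, of which 12 were shared. Without E1 there were 13 calls, without E2 11 and without EY2 35. The study's methods give 2 mice per genotype, and the p-values measure the spread between these libraries. In sums over cells of this kind, fewer expressing cells and less RNA per cell cannot be told apart.

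Interferon-induced genes commonly carry in their promoters a paired GAAA element that interferon-activated transcription factors bind. The letters GAAANNGAAA were searched on both strands (TTTCNNTTTC on the other) in the 250 bases before the start of each gene in the RefSeq promoter table of GRCm38.p6. They occurred in 11 of the 20 called genes that the table held (55.0%), in 175 of 4825 tested genes (3.63%) and in 978 of 32851 promoters (2.98%). The windows of 6 of the 11 called genes with a match are shown, chosen because they hold it, so that the element can be seen; capitals mark the match, each run reads 5′ to 3′ on the strand of the gene, and a match is a description of letters and no evidence of binding.
Isg15, chr4:156200855-156200904, minus strand, match 66 bases before the start: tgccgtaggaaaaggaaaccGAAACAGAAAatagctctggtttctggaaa
Bst2, chr8:71537567-71537616, minus strand, match 124 bases before the start: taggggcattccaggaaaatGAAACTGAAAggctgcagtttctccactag
Ifit1, chr19:34640784-34640833, plus strand, match 85 bases before the start: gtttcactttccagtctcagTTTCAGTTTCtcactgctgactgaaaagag
Ifit3, chr19:34583387-34583436, plus strand, match 122 bases before the start: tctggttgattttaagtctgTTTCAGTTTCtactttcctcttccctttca
Igtp, chr11:58199502-58199551, plus strand, match 34 bases before the start: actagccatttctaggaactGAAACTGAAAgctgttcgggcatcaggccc
Oas3, chr5:120777705-120777754, minus strand, match 75 bases before the start: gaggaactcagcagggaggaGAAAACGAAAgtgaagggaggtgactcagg
In Isg15, Bst2, Igtp and Oas3 the match lay on the strand of the gene, and in Ifit1 and Ifit3 on the other. Ifit3b held the same 50 bases as Ifit3, so reads of these neighbouring copies may not be separable and their values are uncertain. No match was found in the windows of Irf7, Oasl2, Ifi202b, Ifit2 and Xaf1.

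Isg15 encodes a ubiquitin-like protein that is attached to other proteins after interferon exposure (GRCm38 chr4:156199424-156200818, minus strand). Its level was 102 and 21.4 CPM in N, 862 and 569 in E, 140 and 117 in Y, and 189 and 270 in EY. Both E libraries stood above all others, and N2 was the lowest. E exceeded N by 3.54 ± 0.56 on the log2 scale (edgeR adjusted p = 0.0340). The call was lost without E1, E2, EY1 or EY2, with log2 differences from 2.72 to 5.0 when single libraries were left out, and also with at least 20 cells per library, a minimum of 200 genes, no upper limits, and without E1 and EY2. Only EY2 held fewer than 20 of these cells, so here and below the fit with at least 20 was the fit without EY2. A library left alone in its group by such a step is assumed to vary like those of the other groups. Many cells carried the difference. Isg15 was detected in 65.2% of the E1 cells and 55.3% of the E2 cells, against 18.4% in N1 and 10.3% in N2. The richest single cell held 33.0 and 11.3% of the UMIs of E1 and E2. After thinning every cell to 1500 UMIs the shares were 39.1 and 24.3% against 14.0 and 3.85%.

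Bst2 (tetherin), a membrane protein that retains budding viruses (GRCm38 chr8:71534255-71537456, minus strand), was at 43.9 and 36.9 CPM in N, 499 and 330 in E, 119 and 212 in Y, and 94.6 and 50.7 in EY. E was highest, Y intermediate without overlap, and EY close to N. The difference of E from N was 3.31 ± 0.38 (edgeR adjusted p = 0.000207), and it stayed called without any single library, at 3.03 to 3.55. Ifit1, whose product binds RNA that lacks host cap methylation, was at 22 and 21.4 CPM in N, 411 and 181 in E, 25.9 and 55.2 in Y, and 89.6 and 33.8 in EY. Its difference of 3.60 ± 0.48 (edgeR adjusted p = 0.00192) also stayed called without each library. Only the E libraries were above 100 CPM.

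Zbp1, a sensor of Z-form nucleic acid, rose from 61.0 and 56.3 CPM in N to 294 and 283 in E (2.29 ± 0.32, edgeR adjusted p = 0.00179), with 86.3 to 135 CPM in the other 4 libraries. Irf7, the transcription factor that amplifies type I interferon, was at 22 and 38.8 CPM in N and 245 and 122 in E, without overlap (2.36 ± 0.47, edgeR adjusted p = 0.0340, lost without N1, E1, E2, EY1 or EY2, and with at least 20 cells, no upper limits, stricter T-cell limits or the highest doublet scores removed). Ifi202b was at 7.32 and 1.94 CPM in N and 137 and 74.1 in E (4.30 ± 0.63, edgeR adjusted p = 0.00192). Of the named genes, Ifit3, Ifit1, Ifi202b, Bst2 and Zbp1 were called without each library in turn. Usp18, which removes Isg15 from proteins (3.43 ± 0.73), Ifit2 (3.86 ± 0.77), Oasl2 (3.01 ± 0.64) and Rtp4 (3.09 ± 0.53) were called in the fit of all libraries but not without E2. Usp18 and Oasl2 were also lost without N1, N2 or E1, and Ifit2 without N2 or E1. Usp18, Ifit2 and Oasl2 were also lost by the DESeq2 test, with stricter T-cell limits and without E1 and EY2, Usp18 and Oasl2 with no upper limits, and Usp18 with the highest doublet scores removed. Ifit3 had 64 UMIs in E and 2 in N, a ratio of 31.9 (exact 95% counting interval 8.48 to 269), and Ifit3b had 35 and 0, at least 11.6-fold more with 3 UMIs over the group in place of 0.

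**Figure D2:**
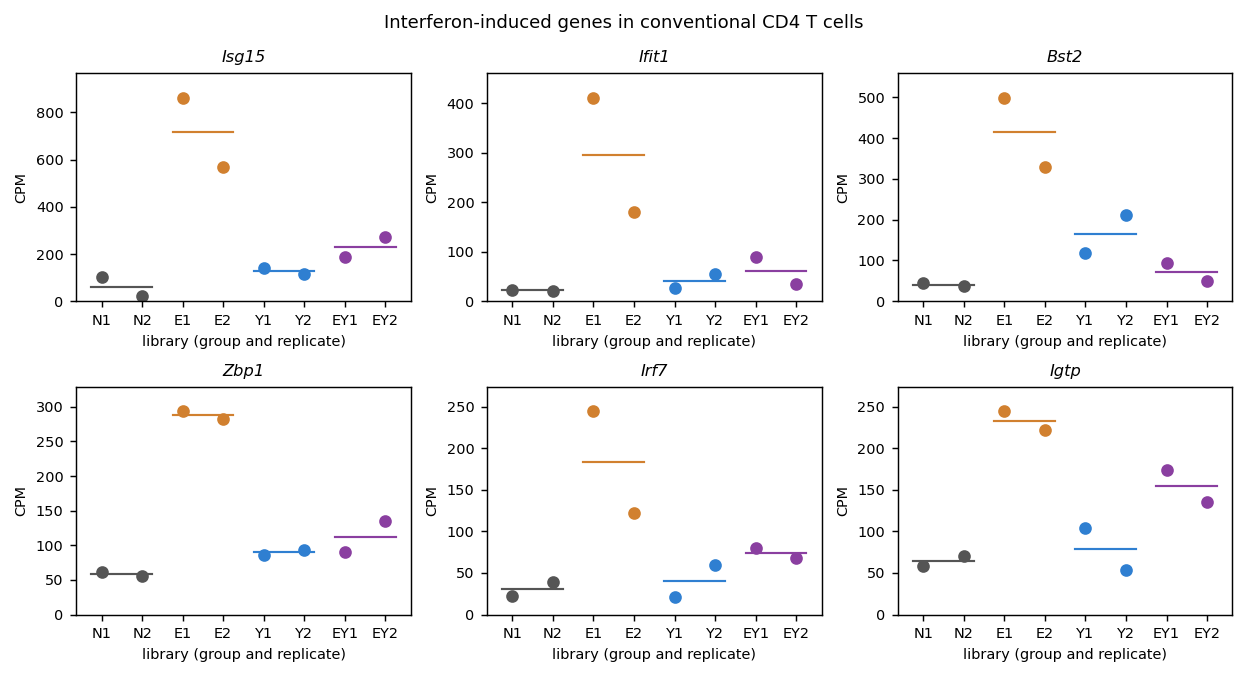
Levels of Isg15, Ifit1, Bst2, Zbp1, Irf7 and Igtp in conventional CD4 T cells, in CPM. Each point is 1 library and each bar the group mean; the 2 E libraries are the highest for each of the 6 genes, for example 862 and 569 CPM of Isg15 against at most 270 elsewhere.

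Other interferon-related genes were higher in E with less certainty. Ly6a (Sca-1) was at 813 and 1039 CPM in N and 2370 and 2255 in E (1.32, edgeR adjusted p = 0.0512), and Ifi27l2a at 652 and 963 against 4729 and 2701 (2.19, adjusted p = 0.455). For both the E libraries lay above the N libraries, and the edgeR test did not call them. Igfbp7, a secreted insulin-like growth factor binding protein that is not an interferon gene by name, was among the 23, at 17.1 and 11.7 CPM in N and 49.0 and 89.9 in E (2.47, edgeR adjusted p = 0.0212, lost without N2 or E2, by the DESeq2 test and with stricter T-cell limits).

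The same genes were measured in other cells of the same libraries, as raw CPM. Isg15 was at 108 and 104 CPM in the CD8 cells of N1 and N2 and 1015 and 573 in those of E1 and E2, at 54.4 and 47.0 against 514 and 509 in regulatory T cells, and at 59.7 and 48.0 against 665 and 433 in keratin-rich cells. E was above N in each class. In EY1 and EY2 the keratin-rich cells stood at 489 and 521 CPM and the CD8 cells at 107 and 185. Isg15 RNA was also detected in up to 82.6% of keratin-rich cells, and the part of free RNA in the T-cell values was not tested. Slfn1, Slfn5 and Ifi203 were at 64.5 ± 18.7, 41.6 ± 7.07 and 116 ± 57.6 CPM in the conventional CD4 T cells of N and at 247 ± 93.3, 202 ± 51.6 and 370 ± 51.6 in those of E (mean ± SD, n = 2), and each was called. Over all libraries keratin-rich cells held 0.457, 1.62 and 3.56 CPM of them, and all cells without a Cd3 UMI 31.9, 35.6 and 29.5. These 3 genes were chosen for description after their values were seen. Other called genes were abundant in keratin-rich cells. Oasl2 was at 104 and 92.0 raw CPM in those of E1 and E2, against 68.7 and 49.1 in the conventional CD4 T cells. Usp18 was at 54.2 and 44.0 against 68.7 and 57.5, and Rtp4 at 78.0 and 68.2 against 147 and 85.1. Igfbp7 was at 139 and 130 against 49.1 and 88.6. The part of free RNA was not tested for any of these genes.

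The next comparison took both groups with E6-E7 together. With E and EY together against N and Y, 2 of 6030 genes were called (0.0332%), the interferon-induced GTPases Gbp4 and Igtp, and 265 genes had an unadjusted p under 0.05. Igtp was at 58.6 and 69.9 CPM in N, 245 and 222 in E, 104 and 53.1 in Y, and 174 and 135 in EY, so the 4 libraries with E6-E7 were above the 4 without (1.47 ± 0.26, edgeR adjusted p = 0.0463). Gbp4 was at 36.6 and 54.4 CPM in N, 127 and 134 in E, 62.6 and 36.1 in Y, and 184 and 84.5 in EY, again without overlap (1.56 ± 0.27, edgeR adjusted p = 0.0463). Both calls were lost without N1, N2, E1, E2 or Y2, Gbp4 also without EY1, at log2 differences of 1.31 to 1.73, and leaving out EY2, Y1 or Y2, or EY1 gave 4, 5 and 8 calls. Without the 13 cells with antigen-presenting cell UMIs edgeR called 0 genes, and without E1 and EY2 2. Both calls were also lost with no upper limits and with stricter T-cell limits, and Igtp with Scrublet calls removed and without E1 and EY2. No gene of the interferon-stimulated list was called for this effect, while 16 of 16 had a positive difference with a median of 1.68.

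With the YAP transgene in the epithelium, 21 of 6030 genes differed in conventional CD4 T cells, 17 higher (0.282% of genes tested) and 4 lower (0.0663%), together 0.348%, and 587 had an unadjusted p under 0.05. The higher genes included the actin-severing protein Scin, the decoy receptor Il1r2, the costimulatory receptor Tnfrsf4 and glycolysis or hypoxia genes (Tpi1, Pgk1, Bnip3, Ndrg1), and the lower ones Nkg7, S100a4, Rgs16 and Csf1. The comparison set Y and EY against N and E in a model with a term for each transgene. Most of the 21 genes were not called by the DESeq2 test. The losses listed for single genes of this comparison do not include that test. Lcn2, Retnlg, Crct1, Ly6c1, Cxcl16 and Tnfaip2, 6 of the 21, stood 58.5, 50.4, 16.5, 13, 9.78 and 9.26 times higher in cells outside the T cells than here, and are not described further. Without the 13 cells with antigen-presenting cell UMIs 14 genes were called, all among the 21, and without E1 and EY2 8 were called, 7 of them shared. The neutrophil and dendritic sums given above were each higher in 3 of the 4 libraries with YAP than in any without, and the macrophage sum in 2 of the 4, and their part in the result was not tested. Of the neutrophil list 1 of 4 tested genes was called (Retnlg) and all 4 differences were positive, with a median of 4.51. The 3 dendritic genes tested had a median of 4.42 and the 5 macrophage genes of 2.05, with none called. Without N2 36 genes passed, without E1 11, without E2 7 and without Y2 50.

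Scin, scinderin, which caps and severs actin filaments, had the smallest p (GRCm38 chr12:40059769-40134228, minus strand). It was at 0 and 5.83 CPM in N, 9.79 and 4.86 in E, 75.6 and 76.5 in Y, and 59.7 and 135 in EY. All 4 libraries with YAP were above all 4 without, at 86.7 ± 33.1 against 5.12 ± 4.02 CPM (mean ± SD, n = 4). The log2 difference was 4.12 ± 0.48 (edgeR adjusted p = 0.000162), and it remained called without any single library, at 3.72 to 4.45. The UMIs came from few cells, 11 and 7 of Y and 3 and 1 of EY, against 0, 2, 1 and 3 across N and E. In EY2 a single cell held all 8 UMIs. In CD8 cells Scin was at 0 in N and E and at 6.99, 89.7, 26.2 and 2.80 raw CPM across Y and EY, and in keratin-rich cells at 3.68 to 35.6 CPM in all libraries.

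Il1r2, a decoy receptor that binds interleukin 1 without signalling (GRCm38 chr1:40074079-40125231, plus strand), was at 65.9 and 64.1 CPM in N, 29.4 and 52.2 in E, 205 and 348 in Y, and 139 and 490 in EY. The lowest library with YAP was above the highest without (2.27 ± 0.35, edgeR adjusted p = 0.0142, lost without E2). In CD8 cells it was at 27, 5.2, 2.29 and 0.453 raw CPM in the libraries without YAP and at 73.4 to 151 in those with it. Cells without Cd3 held 13.7 to 97.8 CPM in N and E and 119 to 905 in Y and EY, so Il1r2 RNA was also more abundant around the T cells, and the part of free RNA was not tested.

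Tnfrsf4 (OX40) gives activated T cells a survival signal (GRCm38 chr4:156013843-156016612, plus strand). Its level was 198 and 398 CPM in N, 578 and 328 in E, 915 and 557 in Y, and 891 and 1149 in EY. The arms overlapped, since E1 was above Y2, and the rise was 1.25 ± 0.25 (edgeR adjusted p = 0.0420, lost without N1, E2, Y1 or EY2, range 1.05 to 1.46, and with at least 20 cells, stricter T-cell limits and without E1 and EY2). It was detected in 24.6 and 61.5% of cells in N, 60.9 and 66.0% in E, 78.4 and 61.8% in Y, and 73.5 and 85.7% in EY. CD8 cells held 9.51 to 66.3 raw CPM without YAP and 187 to 264 with it. Its neighbour Tnfrsf18 (GITR) was at 242 to 401 CPM without YAP and 457 to 648 with it (0.87, edgeR adjusted p = 0.0903). Of the 13 costimulatory and TNF superfamily genes tested only Tnfrsf4 was called, 6 of 13 differences were positive and their median was -0.09.

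Some genes of sugar breakdown and low oxygen were among those called higher with YAP. On the glycolysis and hypoxia list these were 2 of 14 (Bnip3 and Pgk1), against 0.282% of all genes tested, with 13 of 14 differences positive and a median of 0.78 (-0.01 over all genes). The glycolytic enzyme Pgk1 was at 249 and 237 CPM in N, 235 and 233 in E, 466 and 393 in Y, and 403 and 642 in EY. The libraries without YAP lay close together and all with YAP stood clear of them (0.96 ± 0.20, edgeR adjusted p = 0.0438). Tpi1, another glycolytic enzyme, was at 119 to 193 CPM without YAP and 294 to 760 with it (1.53 ± 0.28, edgeR adjusted p = 0.0281). The mitophagy receptor Bnip3 was at 9.76, 5.83, 0 and 3.65 CPM across N and E and at 34.5, 40.4, 24.9 and 101 across Y and EY (2.79 ± 0.58, edgeR adjusted p = 0.0420). Ndrg1, a known hypoxia-induced gene, was at 0 to 24.4 CPM without and 47.5 to 101 with YAP (2.0 ± 0.43, edgeR adjusted p = 0.0438). Aldoa, at 356 to 617 CPM without and 746 to 980 with YAP, did not pass (0.90, edgeR adjusted p = 0.0610). Each of these calls was lost when some of the libraries were left out 1 at a time, with all differences still positive. Pgk1 was lost without N1, N2, E1, E2, Y1 or EY2, and Tpi1 without E1 or E2. Bnip3 was lost without N2, E2, Y1, Y2 or EY2, and Ndrg1 without E1, E2, EY1 or EY2. Bnip3, Pgk1 and Ndrg1 were also lost with at least 20 cells per library, with cells of antigen-presenting UMIs removed and without E1 and EY2, Bnip3 and Ndrg1 with the highest doublet scores removed, Pgk1 and Ndrg1 with stricter T-cell limits (3 Cd3 and 2 Cd4 UMIs), and Ndrg1 with Scrublet calls removed. In CD8 cells Pgk1 was at 176 to 235 raw CPM without YAP and 288 to 467 with it, and in keratin-rich cells at 153 to 213 and 308 to 815. Cells without Cd3 held 2.98 and 2.89 times the pooled level of Bnip3 and Ndrg1 here. There Bnip3 was at 14.0 to 27.6 raw CPM without YAP and 73.4 to 141 with it, and Ndrg1 at 31.9 to 56.5 and 115 to 173. Tpi1 was at 217 to 250 and 371 to 783 in those cells, and the part of free RNA in all of these values was not tested.

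Nkg7, a granule protein of cytotoxic lymphocytes (GRCm38 chr7:43437073-43438249, plus strand), was lower with YAP. It stood at 434 and 557 CPM in N, 460 and 764 in E, 207 and 144 in Y, and 119 and 304 in EY, without overlap (fell by 1.60 ± 0.26 on the log2 scale, edgeR adjusted p = 0.0116). The call held without each library, at -1.80 to -1.38, and was lost with a minimum of 200 genes per cell and with the stricter T-cell limits. S100a4, a calcium-binding protein of effector and memory cells, was at 3613 to 4773 CPM without and 1468 to 2685 with YAP (-1.09 ± 0.19, edgeR adjusted p = 0.0142, lost without E1 or E2 and with stricter T-cell limits). CD8 cells held 2448 to 2884 raw CPM of Nkg7 without and 1430 to 1995 with YAP, and 3111 to 3950 and 1686 to 2998 CPM of S100a4. Of 7 cytotoxic genes tested Nkg7 alone was called, 1 of 7 differences was positive and the median was -1.11. Klrk1 (NKG2D) was at 58.7 to 338 CPM without and 16.9 to 95.6 with YAP (-2.02, edgeR adjusted p = 0.0713).

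**Figure D3:**
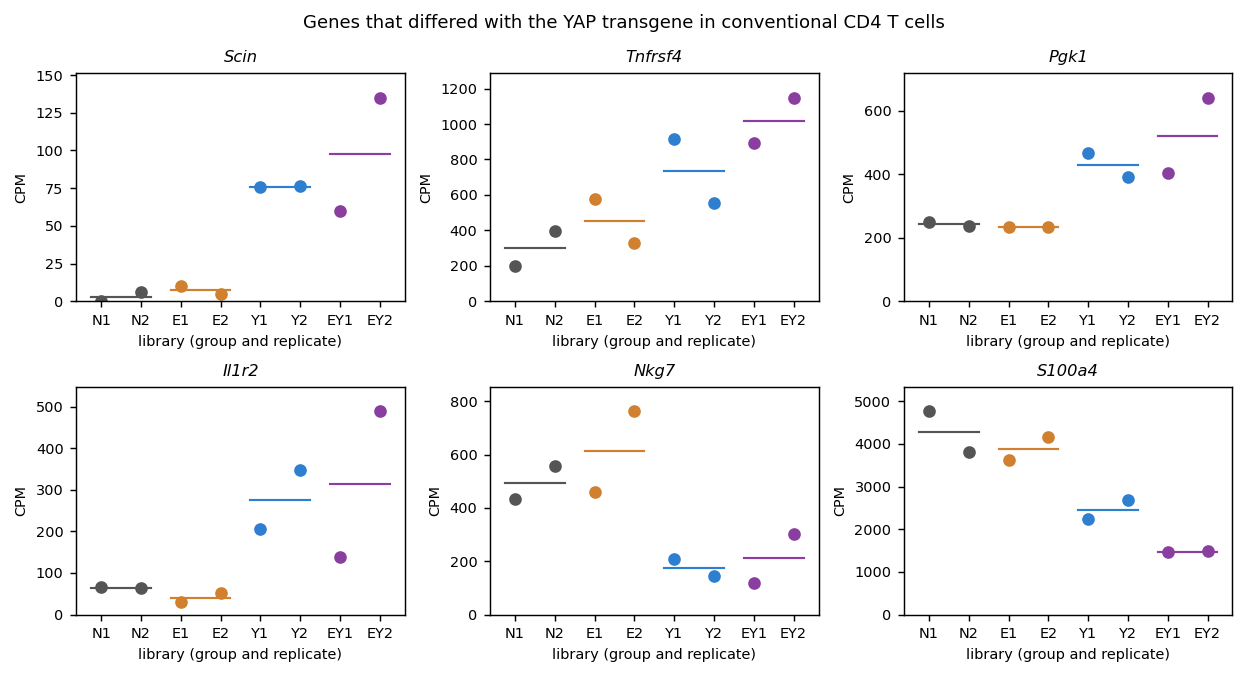
Levels of Scin, Tnfrsf4, Pgk1, Il1r2, Nkg7 and S100a4 in conventional CD4 T cells, in CPM. Each point is 1 library and each bar the group mean; the Y and EY libraries are higher than the N and E libraries for Scin, Pgk1 and Il1r2, lower for Nkg7 and S100a4, and overlap them for Tnfrsf4, where E1 (578 CPM) exceeds Y2 (557).

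Rgs16, which dampens chemokine receptor signalling, was at 120, 58.3, 49.0 and 48.6 CPM across N and E and at 19.4, 36.1, 4.98 and 0 across Y and EY (-1.90 ± 0.40, edgeR adjusted p = 0.0420). Csf1, the macrophage growth factor, was at 100, 27.2, 68.5 and 93.6 CPM without YAP and 8.63, 19.1, 9.95 and 0 with it (-2.46 ± 0.51, edgeR adjusted p = 0.0489). Both sets were free of overlap, and both calls were lost without N1, E1, E2, Y1, EY1 or EY2, at -2.49 to -1.57 for Rgs16 and -3.09 to -1.90 for Csf1. Both were also lost with at least 20 cells per library, stricter T-cell limits, cells of antigen-presenting UMIs removed and without E1 and EY2, and Csf1 with Scrublet calls or the highest doublet scores removed. CD8 cells held 48.0 to 143 raw CPM of Csf1 without YAP and 48.9 to 138 with it, and 148 to 168 CPM of Rgs16 without YAP and 59.3 to 331 with it. Ramp3, which modifies the calcitonin receptor-like receptor, was at 29.3 to 68.5 CPM without and 75.6, 95.6, 383 and 118 with YAP (1.80 ± 0.35, edgeR adjusted p = 0.0420, lost without N1, E1, E2 or EY1 and with stricter T-cell limits, and 1.17 without EY1). The remaining genes were Sdf4, a calcium-binding protein of the Golgi (1.2 ± 0.23, edgeR adjusted p = 0.0281, lost without E1 or E2), Sdhaf1, an assembly factor of succinate dehydrogenase (1.23 ± 0.26, edgeR adjusted p = 0.0438, lost without any library but N2), and Prr29, a gene under the level for naming that was chosen after its values were seen, at 2.43 to 9.79 CPM without and 33.8 to 44.6 with YAP. None of the 17 T-cell receptor signalling, 14 cell cycle, 16 immediate early or 10 heat shock genes was called for YAP by edgeR, with medians of -0.26, -0.47 and -0.34 for the first 3 lists.

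Each oncogene group was then set against N, with the N libraries shared by the 3 comparisons. EY, which had both transgenes, differed from N in 2 of 6030 genes (0.0332%, 541 with an unadjusted p under 0.05), Ramp3 and Scin, on 34 cells of EY1 and 14 of EY2. Ramp3 was at 29.3 and 44.7 CPM in N and 383 and 118 in EY (2.91 ± 0.43, edgeR adjusted p = 0.0125, lost without E2 or EY1, where it was 1.57). Scin had 20 UMIs in EY and 3 in N, a ratio of 23.7 per UMI sequenced (exact 95% counting interval 7.04 to 125). The interval treats UMIs as independent, although few cells held them. This call was lost without E2 or EY2 and with at least 20 cells per library. The interferon list had 15 of 16 positive differences and a median of 1.29 in EY, with none called, and the glycolysis and hypoxia list 14 of 14 positive and a median of 1.09, with none called. Leaving out N1 gave 8 calls, N2 or Y2 29, E1 4, E2 0 by edgeR, Y1 19 and EY1 22, and leaving out E1 and EY2 together gave 6.

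Y alone differed from N in 4 genes (0.0663%, 251 with an unadjusted p under 0.05), all higher: Scin, Csf2, Igfbp7 and Bst2. Scin had 71 UMIs in Y and 3 in N, a ratio of 23.5 (counting interval 7.71 to 116), and remained called without each library. Igfbp7 was at 17.1 and 11.7 CPM in N and 84.2 and 132 in Y (2.91 ± 0.44, edgeR adjusted p = 0.00658, lost without N2, by the DESeq2 test and with stricter T-cell limits). Keratin-rich cells held 130 to 199 raw CPM of Igfbp7 across all libraries, and the part of free RNA was not tested. Bst2 was at 43.9 and 36.9 CPM in N and 119 and 212 in Y (2.03 ± 0.38, edgeR adjusted p = 0.0415, lost without N1, N2, E2 or Y2, by the DESeq2 test and with stricter T-cell limits), and was the only gene of the interferon list called, 16 of 16 differences being positive with a median of 0.82. The count rose to 10 without N1 or Y1, 7 without N2, 15 without Y2, 11 without EY1 or EY2, and 14 without E1 and EY2.

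Whether the log2 differences of the transgenes departed from adding up was tested by their interaction. Of 6030 genes 3 passed (0.0498%, 199 with an unadjusted p under 0.05). All 3, named here after their values were seen, had higher group means with either transgene alone than with both. Bst2 was at 499 and 330 CPM in E, 119 and 212 in Y and 94.6 and 50.7 in EY, an interaction of -4.34 ± 0.56 (edgeR adjusted p = 0.00122) that held without each library. Igfbp7 was at 49.0 and 89.9 in E, 84.2 and 132 in Y and 19.9 and 33.8 in EY (-4.66 ± 0.73, edgeR adjusted p = 0.00927, lost without E2 or EY1, by the DESeq2 test and with stricter T-cell limits). In the interferon list 1 of 16 genes was called, 0 of 16 interactions were positive and the median was -2.23. The count was 6 without N1 or N2, and 5 without Y2 or EY2.

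Csf2, the granulocyte-macrophage growth factor GM-CSF, had UMI counts of 0 and 1 in N, 3 and 64 in E, 73 and 34 in Y, and 0 and 2 in EY. Against N the ratio per UMI sequenced was 66.8 in E (exact 95% counting interval 11.6 to 2679) and 106 in Y (18.6 to 4229), and its interaction of -9.35 ± 1.43 passed (edgeR adjusted p = 0.0323). Few cells carried it: 3 and 8 in E, 5 and 9 in Y, and a single cell of Y1 held 60 of the 73 UMIs (82.2%). The counting intervals do not allow for this clustering of UMIs in cells. The E call was lost without N1, N2 or E2 and by the DESeq2 test, the Y call without N2, and the interaction without E2 or EY1. Csf2 was at 0 in the regulatory T cells of all libraries and at 0 to 123 raw CPM in CD8 cells.

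The effector cytokines showed which helper programmes the population held. Il17a or Il17f was detected in 114 of the 556 cells, Ifng in 135, Il22 in 65 and Il4, Il5 or Il13 in 42, while 278 cells held none of these. Il17a or Il17f was found in 62 of 114 cells in N1 (54.4%, exact 95% interval 44.8 to 63.7) but in 8 of 78 in N2 (10.3%, 4.53 to 19.2). The E libraries had 0 of 23 (exact 95% interval up to 14.8%, with 3 cells equal to 13%) and 12.6%, the Y libraries 9.09 and 13.7%, and the EY libraries 23.5 and 7.14%, so N1 stood apart from its own replicate and from all other libraries. Il17a was at 615 CPM in N1 and 0 to 134 elsewhere. In N1 75 of the 114 cells held exactly 1 Cd4 UMI, and gamma-delta T markers summed to 131 CPM there and 126 in E2. The part of gamma-delta cells or of cells at the edge of the rule in the Il17 share of N1 was not tested. Thinned to 1500 UMIs per cell, which kept all 556, the share with Il17a was 33.3% in N1 and at most 8.82% elsewhere, although the cells of N1 were among the shallowest. Il22, which acts on epithelium, was found in 28.9% of cells in N1 and 23.5% in EY1 and in 0 to 7.77% of the others. The programmes overlapped: 46 cells held both Il17 and Il22 RNA, 30 of them in N1, while 10 held Il17 and Ifng and 16 Il17 and a type 2 cytokine. Keratin-rich cells, which should lack these RNAs, held a UMI of Il17a in at most 0.439%, of Il17f in 0.345% and of Il22 in 0.396%.

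Ifng was highest in E2, at 48 of 103 cells (46.6%), against 30.4% in E1, 18.4 and 30.8% in N, 22.7 and 7.84% in Y, and 14.7 and 14.3% in EY. Levels were 161 and 313 CPM in N, 127 and 371 in E, 117 and 59.5 in Y, and 59.7 and 33.8 in EY, all 4 libraries with YAP below all 4 without, but the difference did not pass (-1.77, edgeR adjusted p = 0.127). After thinning the shares were 15.8 and 17.9% in N, 21.7 and 18.4% in E, 10.2 and 5.88% in Y, and 2.94 and 0% in EY. The share of keratin-rich cells with an Ifng UMI was at most 2.86% (Y1), and at most 0.136% after thinning.

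Type 2 cytokines were found in 10 of 114 cells in N1, 0 of 78 in N2 (exact 95% interval up to 4.62%, with 3 cells equal to 3.85%), 2 and 6 cells of E, 8 of Y1, 14 of the 102 of Y2 (13.7%), and 1 cell each of EY1 and EY2. Summed levels of these secreted factors often came from single cells, so their CPM do not describe the population. A single cell of Y1 held 223 of 249 Il13 UMIs (89.6%), and in EY1 all 72 Il13 UMIs and in E1 all 22 Il4 UMIs were in single cells. Likewise 1 cell held 59 of 59 Il22 UMIs in EY2 and 49 of 56 in N2, and 64.4% of the Il17f UMIs of EY1. No gene of the type 1, type 2 or type 17 helper lists was called in any group comparison by edgeR, and of the 13 cytokines tested only Csf2 was called.

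**Figure D4:**
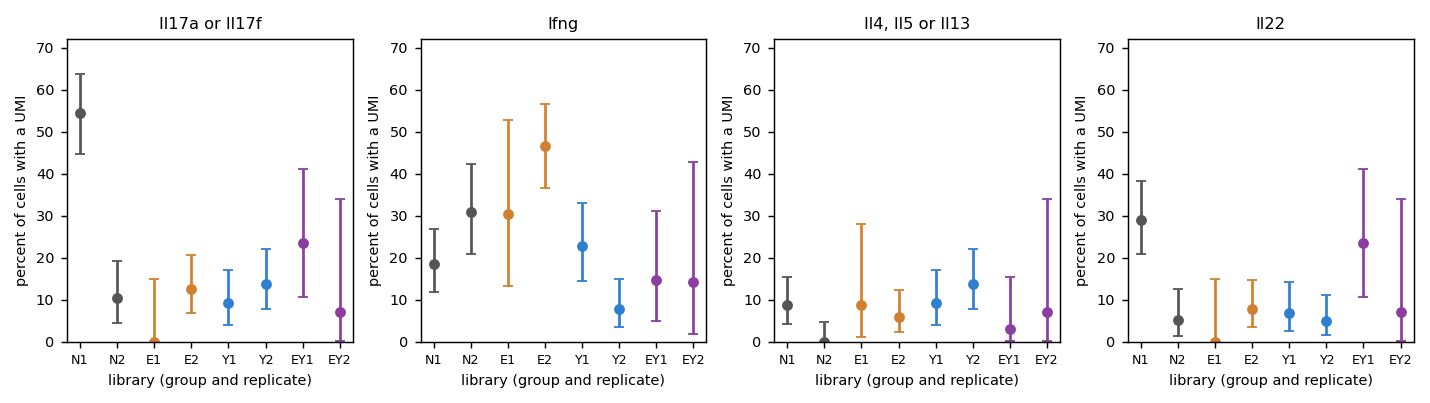
Share of conventional CD4 T cells with at least 1 UMI of Il17a or Il17f, of Ifng, of Il4, Il5 or Il13, and of Il22, in percent of cells. Each point is 1 library with its exact 95% interval; N1 is far above the other libraries for Il17a or Il17f (54.4% against at most 23.5%), and E2 is the highest for Ifng (46.6%).

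Within a library the cells were compared with the regulatory T cells, the other CD4 T cells, in a fit with the library as a block over 7 libraries, since EY2 held 2 regulatory cells. The genes of the rule were left out. Of 4343 genes tested 582 differed (13.4%), 298 higher (6.86%) and 284 lower (6.54%) in conventional cells. Both classes came from 1 population split on Foxp3, so Foxp3-linked genes differ by the way the cells were chosen. Conventional cells had more Ifng (186 ± 132 against 7.30 ± 7.18 CPM, n = 7, 5.12 ± 0.40, edgeR adjusted p = 6.18e-08) and more Tcf7, the memory transcription factor TCF-1 (149 ± 37.1 against 5.38 ± 5.28 CPM, 4.11 ± 0.28, edgeR adjusted p = 4.87e-12). Of the TNF superfamily ligands, Tnfsf8 (CD30 ligand) stood at 666 ± 227 against 55.1 ± 20.2 CPM (3.53 ± 0.17, edgeR adjusted p = 7.95e-16) and Tnfsf11 (RANKL) at 150 ± 75.9 against 22.6 ± 31.1 CPM (3.09 ± 0.29, edgeR adjusted p = 6.82e-09). The survival factor Bcl2 (3.82 ± 0.42), the membrane channels Tmem176a (4.14 ± 0.27) and Tmem176b (3.52 ± 0.22) and the protease inhibitor Serpinb1a (3.17 ± 0.31) were also higher, each in 7 of 7 libraries.

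The regulatory programme was lower: 7 of 8 tested regulatory genes other than Foxp3 fell, with a median of -1.64. Ikzf2 (Helios) stood at 220 ± 119 against 1421 ± 263 CPM (-2.78 ± 0.25, edgeR adjusted p = 5.86e-05), the checkpoint receptor Ctla4 at 415 ± 132 against 1048 ± 145 CPM (-1.39, edgeR adjusted p = 1.99e-07) and Il10 at 15.5 ± 17.8 against 119 ± 53.5 CPM (-3.04 ± 0.35, edgeR adjusted p = 8.67e-06). Areg, an epithelial repair factor, was at 148 ± 51.3 against 948 ± 475 CPM (-2.64 ± 0.26, edgeR adjusted p = 0.000101). Gzmb was at 72.7 ± 69.0 against 603 ± 403 CPM (-2.91 ± 0.53, edgeR adjusted p = 0.0140, lost without N2). Klrg1, Itgb8, Ikzf4 and Ighm were lower in 7 of 7 libraries. Costimulatory genes split, with 4 of 11 higher and 6 lower: Tnfrsf4 was at 592 ± 287 against 1579 ± 375 CPM (-1.51) and Tnfrsf9 (4-1BB) at 154 ± 80.3 against 811 ± 408 (-2.46). Of 17 T-cell receptor signalling genes 8 were called higher in conventional cells and 1 lower, with a median of 0.34, among the higher ones Themis (104 ± 29.6 against 25.4 ± 19.1 CPM, 2.41) and Cd28, which is also on the costimulation list (0.79). Of 10 residency genes 5 were higher and 3 lower, Cxcr6 at 552 ± 241 against 125 ± 65.7 CPM (2.03, edgeR adjusted p = 0.0138, lost without EY1). Trat1 did not differ by the test (0.02, edgeR adjusted p = 0.988). Without E2 the total was 373 genes.

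Against CD8 T cells, over 8 libraries with the same block, 826 of 5387 genes differed (15.3%), 372 higher (6.91%) and 454 lower (8.43%). All 10 cytotoxic and natural killer genes tested were lower, with a median of -2.93. The granule protease Gzma was at 3.98 ± 3.62 against 1022 ± 908 CPM (n = 8, -7.31 ± 0.42, edgeR adjusted p = 7.20e-06) and perforin (Prf1) at 5.44 ± 8.42 against 200 ± 45.5 (-4.88 ± 0.35, edgeR adjusted p = 2.09e-06). The chemokine Ccl5 was at 120 ± 63.5 against 6168 ± 1901 CPM (-5.74 ± 0.35, edgeR adjusted p = 1.80e-05), and the inhibitory receptor Lag3 at 7.17 ± 6.47 against 106 ± 24.7 (-3.98 ± 0.27, edgeR adjusted p = 3.15e-10). Ccl4, Ccl3, Klre1 and Ly6c2 were lower in 8 of 8 libraries, by 5.30, 4.78, 4.57 and 4.04 on the log2 scale. Ifng, higher here than in regulatory cells, was below the CD8 level (153 ± 121 against 515 ± 150 CPM, -1.76 ± 0.25, edgeR adjusted p = 0.00184).

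Genes of the type 17 list were higher than in CD8 cells, those of the type 1 list mostly lower, and 2 of 4 type 2 genes tested were higher. Ccr6, the receptor for the epithelial chemokine CCL20, stood at 134 ± 64.6 against 9.46 ± 8.61 CPM (4.77 ± 0.55, edgeR adjusted p = 0.000798), and 7 of 9 type 17 genes tested were called higher with a median of 2.75. Ccr4 was at 43.3 ± 11.5 against 3.39 ± 3.50 CPM (4.59, edgeR adjusted p = 1.39e-05) and Gata3, the type 2 regulator, at 149 ± 38.1 against 72.3 ± 19.3 (1.11, edgeR adjusted p = 3.75e-08). The transcription factor Maf was at 322 ± 115 against 53.5 ± 28.7 CPM (2.75, edgeR adjusted p = 4.91e-05), and was lower here than in regulatory cells (-0.84). The interleukin 7 receptor Il7r was at 756 ± 243 against 296 ± 111 CPM (1.39, edgeR adjusted p = 1.85e-10). Tnfsf8 (3.64 ± 0.18) and Tmem176a (3.28 ± 0.38) were higher than in either other class, and Trat1 at 68.5 ± 33.8 against 12.8 ± 10.4 (2.98 ± 0.49, edgeR adjusted p = 0.00428). The trefoil peptide Tff1 was at 235 ± 179 against 40.6 ± 66.0 CPM (3.23 ± 0.50, edgeR adjusted p = 0.00427), with cells outside the T cells at 0.00237 times the level here. The type 1 helper list, 1 of 12 called higher and 8 lower, holds genes that CD8 cells also express. Of 11 costimulatory genes 7 were higher and 1 lower, with Tnfrsf4 at 617 ± 325 against 140 ± 115 CPM (2.54), so this receptor lay between the CD8 and regulatory levels. The sign of every named gene of both class comparisons was kept when single libraries were left out.

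**Figure D5:**
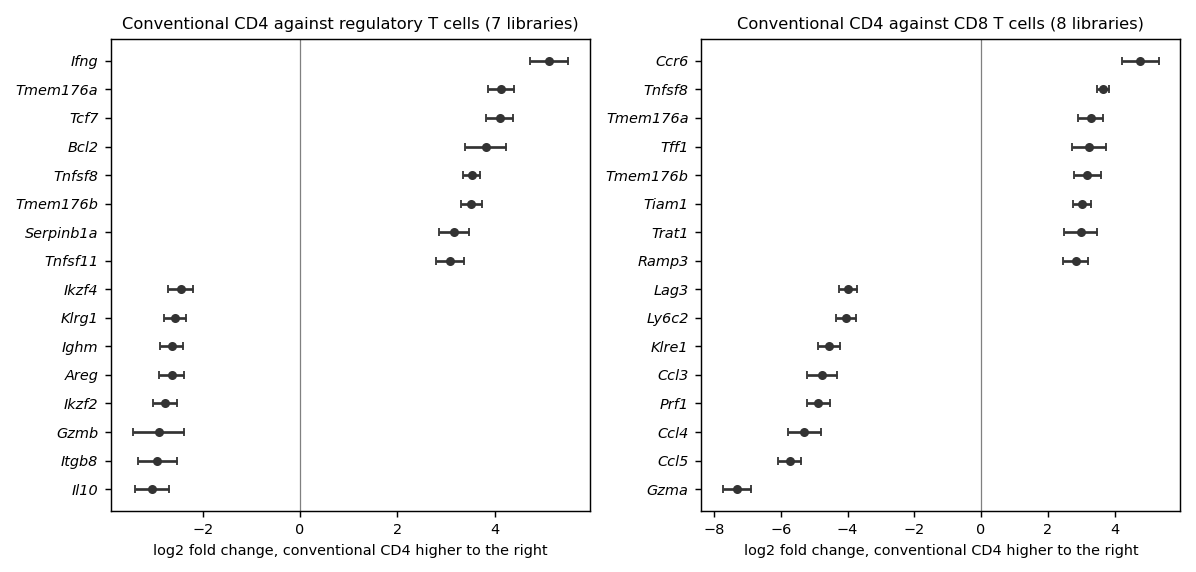
Log2 differences of conventional CD4 T cells from regulatory T cells and from CD8 T cells for the named genes, with their standard errors. Points to the right of 0 are higher in conventional CD4 T cells; Ifng lies at 5.12 against regulatory T cells, and Gzma at -7.31 against CD8 T cells.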

How the data were processed

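Viable cells of tongue epithelium were profiled with droplet-based 3′ single-cell RNA sequencing in 8 libraries of 4 groups, all at day 15. The deposited values are raw UMI counts per gene and barcode, made by the authors with Cell Ranger (5.0.0 in the matrix headers) on mm10. The labels name kit version 2 and the study's methods a later one. No other per-sample columns were used. Cells were chosen by the quality limits and gene counts given in the report, and raw counts were summed per library and class. Libraries with at least 10 such cells entered the fits.

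Sums were tested with edgeR 4.0.16 (quasi-likelihood, filterByExpr, TMM) in R 4.3.3, at a Benjamini-Hochberg adjusted p of 0.05 over all genes tested. The YAP and E6-E7 effects came from a model with 1 term per transgene, and the group comparisons and the interaction from a model of the 4 groups. Conventional cells were compared with regulatory and CD8 T cells with the library as a block. The rule's own genes were left out of these class fits. TMM factors ran from 0.891 to 1.11. CPM are UMIs per 1000000 UMIs of genes tested, scaled by TMM. Values called raw CPM in other cell classes use all UMIs of the class. Shares were compared by two-sided exact permutation tests and have exact 95% binomial intervals (scipy 1.17.1), which cover counting error only. Doublets were called with Scrublet (scanpy 1.11.5) and kept, with their removal as an alternative. The fits were tested on simulated data.

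Named genes were the 8 largest in each direction among called genes. In comparisons between groups they had at least 50 CPM in 1 arm and no overlap between the libraries compared. There they were also not over 5 times higher in cells outside the T cells. In the class comparisons they had at least 50 CPM in 1 class and a difference of the same sign in every library. Genes of 26 lists (278 genes) could also be named. The members, lists and these rules were chosen with earlier results of these data known. Alternatives were DESeq2 (1.42.0) and its size factors, no filter on low counts, at least 20 cells per library, a minimum of 200 genes, no upper limits, stricter limits (3 Cd3 and 2 Cd4 UMIs), Scrublet calls removed, no library block, and each library left out. Removing the highest 6% of doublet scores, removing cells with at least 3 antigen-presenting cell UMIs, and leaving out E1 and EY2 were chosen after seeing the data. Some items are not reported here.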

Additional observations from a re-analysis of the deposited data

Results flagged for a closer look

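In 40 sets of 4 libraries tested for a value far from the others by Dixon's ratio at its 95% critical value, 2 exceeded it. Chance gives this in about 1 in 20 groups. Rgs16 in N1, at 120 CPM, stood apart from the other 3 libraries without YAP (48.6 to 58.3 CPM, ratio 0.864). Ramp3 in EY1, at 383 CPM, stood apart from the other 3 libraries with YAP (75.6 to 118 CPM, ratio 0.862).

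On the log2 scale the effect of one transgene depended on the other for 3 genes, by the edgeR test of the interaction. The log2 interaction was -4.34 for Bst2 (adjusted p = 0.00122), -4.66 for Igfbp7 (edgeR adjusted p = 0.00927) and -9.35 for Csf2 (edgeR adjusted p = 0.0323). In each the mean level with both transgenes was below that with either alone, and in Csf2 most UMIs of Y1 were in a single cell.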

How the results depend on the processing

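No paired analysis was possible because the labels number no replicates and the numbers used here only name the libraries, in the order of the samples. Over 115 gene results, 1888 recomputed values kept the side of the threshold in 1642 cases, lost the call in 206, gained it in 40 and reversed in 0. Recomputed fits that gave a gene no adjusted p were left out of these counts. For the group comparisons the fit with at least 20 cells was the fit without EY2, and these counts hold both. The stricter limits kept 5 cells of EY2, so the group fits under them also left EY2 out. The cause of the changes below was not tested. The YAP count of 21 became 76 with the DESeq2 test (5 shared), 116 with no filter on low counts, 5 with stricter limits, 8 without E1 and EY2, and 7 to 50 without single libraries. The E6-E7 count of 2 became 45 with no filter, 4 with at least 20 cells, 1 without Scrublet calls, and 0 with no upper limits, stricter limits or antigen-presenting cell UMIs removed (edgeR; 265 genes had an unadjusted p under 0.05 in the full fit, and DESeq2 called 2), and 0 to 8 without single libraries. The EY count of 2 became 10 with DESeq2, 62 with no filter, 5 with stricter limits, 4 without Scrublet calls, 5 without the highest doublet scores, 6 without E1 and EY2, and 0 to 29 without single libraries. The Y count of 4 became 37 with no filter, 11 with at least 20 cells, 8 with stricter limits, 14 without E1 and EY2, and 3 to 15 without single libraries. The E count of 23 became 13 with DESeq2 (11 shared), 53 with no filter, 35 with at least 20 cells, 11 with stricter limits, and 11 to 35 without single libraries. The interaction count of 3 became 18 with no filter, 5 with at least 20 cells, 5 with stricter limits, and 2 to 6 without single libraries. Against regulatory T cells 582 became 361 with no library block, 185 with stricter limits and 373 to 641 without single libraries, and against CD8 T cells 826 became 1402 with no filter, 411 with no block and 612 to 824 without single libraries. The E6-E7 difference in the share of T cells, -3.48 percentage points, ran from -6.76 to 0.377 (without N1) when single libraries were left out, and that in the Foxp3-positive share turned from 10.7 to -2.18 with stricter limits. The 14 cells of EY2 and 23 of E1 limit the precision of both groups.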

Other observations

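Reads over T-cell receptor beta variable genes were sparse. A Trbv UMI was found in 13 of the 114 conventional CD4 T cells of N1, and Trbv2 was the most frequent gene there, in 12 of these 13. It was also the most frequent in N2 (6 of 20 cells), E2 (5 of 19), Y1 (9 of 23) and E1 (2 of 2). In Y2 the most frequent was Trbv13-2 (2 of 10) and in EY1 Trbv16 (2 of 5). Gene names were seen in too few cells to compare libraries.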
